A study of Schizosaccharomyces pombe with 36 samples.

Results

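The 138 genes described here encode the proteins of the cytosolic ribosome of fission yeast, *Schizosaccharomyces pombe*. They were taken from a table of RNA levels for 7039 annotated features, of which 5133 were protein-coding, as every protein-coding gene whose symbol opens with rpl, rps or rpp followed by a digit. That selection held 76 genes of the large subunit (rpl), 55 of the small subunit (rps) and 7 of the acidic stalk of the large subunit (rpp), and used no measured value. None of the 138 was an RNase P subunit or a gene of the mitochondrial genome. Cells of a wild-type strain (WT) and of a strain labelled *atf21Δ*, a deletion of the gene for the transcription factor Atf21, were grown in YE medium and brought to 1 M sorbitol, a sugar alcohol used to impose osmotic stress. RNA was sampled before the addition (0 min) and at 5 later times, namely 15, 30, 60, 120 and 180 min, from 3 biological replicates of each strain, which gave 36 libraries. There was no time course without sorbitol, so time in culture and the response to sorbitol cannot be told apart.

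Ribosomal proteins join the ribosomal RNAs in a fixed proportion to build the small subunit, which reads the mRNA, and the large subunit, which joins amino acids into protein. Many of them are made from a pair of paralogous genes in yeasts, and their mRNAs are among the most abundant in growing cells, where their amount is tied to growth through the TOR pathway and to stress. In fission yeast most of these genes lack a TATA box and use the HomolD box, a core promoter element bound by the factor Rrn7, often together with an upstream element called HomolE.

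Both elements stood in the sequence before the genes themselves. In windows from 250 bases before to 50 bases after the annotated gene start (RefSeq, build ASM294v3), the HomolD letters CAGTCACA were found on either strand before 88 of the 138 genes (63.8%), against 137 of all 5123 protein-coding promoters (2.67%), and the HomolE letters ACCCTACCC before 41 (29.7%), against 67 (1.31%). Both were present before 23 of the genes and neither before 32, and no HomolD match overlapped a HomolE match. Among the 4985 promoters of other protein-coding genes, 49 (0.983%) held HomolD and 26 (0.522%) held HomolE. A match is a run of letters and not a shown binding site. The HomolD boxes of genes that the results below turn on are printed 5′ to 3′ along the gene's strand with the box in capitals, so that a box on the opposite strand reads TGTGACTG. The first 2 belong to the genes with the highest levels, the next 3 to genes that fell during the stress and the last 2 to a pair of paralogues of very different levels.
rps801: attcaaaaagaCAGTCACAatcgaaagcca
rps102: tcaaaaaaggaCAGTCACAaatagcacttt
rpl702: ggttgtaaagaCAGTCACAagatgtaaact
rpp103: tagtattttcaCAGTCACAgaaagtttcga
rps2202: tagggtttttaTGTGACTGctcctgtagat
rpl3001: agggtttgaagCAGTCACAttttaatttgt
rpl3002: gtttggatttaTGTGACTGtttttcttgga

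In ASM294v3 these 7 windows lie at chr I:4287463-4287492 (*rps801*), chr I:898988-899017 (*rps102*), chr I:3430803-3430832 (*rpl702*), chr III:2408368-2408397 (*rpp103*), chr I:1512422-1512451 (*rps2202*), chr I:1974113-1974142 (*rpl3001*) and chr I:5095916-5095945 (*rpl3002*), each before a gene on the reverse strand of its chromosome. The box opened 49 bases before the gene start in *rps801*, 44 in *rps102*, 57 in *rpl702*, 60 in *rpp103*, 50 in *rps2202*, 48 in *rpl3001* and 55 in *rpl3002*. Some genes held the HomolE letters, shown here for *rps1401*, which holds HomolE alone and had 1 of the 3 lowest estimates at 15 min and 1 of the 3 highest at 60 min in WT.
rps1401: ccaagcttaaACCCTACCCtaaattgact

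This window lies at chr I:3436166-3436194, before a gene on the forward strand, and the element opened 68 bases before the gene start. Over all members the 62 HomolD matches on the gene's own strand opened at a median of −48.5 bases from the gene start (from −148 to −16) and the 30 on the opposite strand at −56.5 (from −75 to 10). Some boxes lie between neighbouring members and were counted for both, namely *rpl35* and *rpl902*, *rpl701* and *rps1402*, and *rpp203* and *rps1502*. The extremes of −148 (*rpl902*), −16 and 10 (*rpl701*) are such shared boxes. HomolE lay farther away, at a median of −71.0 for 19 matches on the gene's strand and −69.0 for 23 on the other. HomolD was found before 50 of the 76 large subunit genes, 34 of the 55 small subunit genes and 4 of the 7 stalk genes, and HomolE before 19, 21 and 1.

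**Figure D1:**
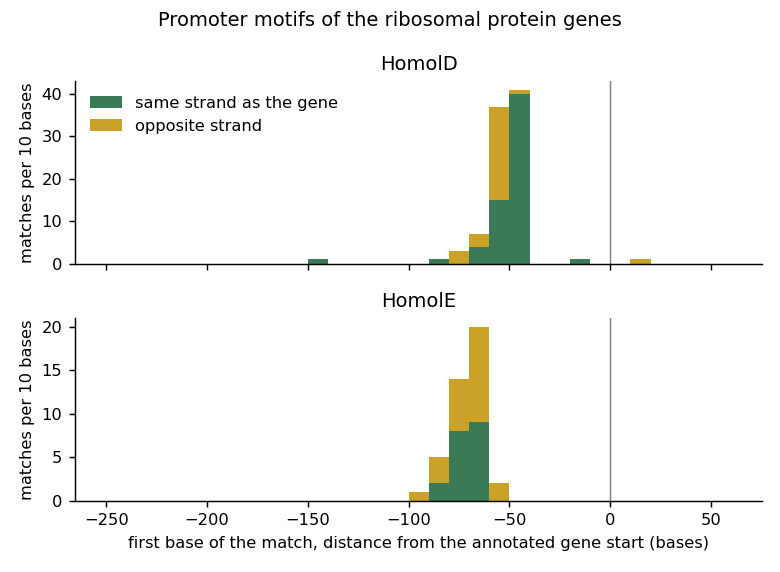
Number of matches per 10 bases (y axis) against the distance of the first base of the match from the annotated gene start in bases (x axis), for HomolD in the upper panel and HomolE in the lower, stacked by strand relative to the gene. HomolD matches gather around medians of −48.5 and −56.5 bases and HomolE matches around −71.0 and −69.0.

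Depth was 7457173 uniquely mapped reads in the shallowest library and 20126545 in the deepest, with 34.2% to 57.5% of reads on features taken by ribosomal RNA, and no member had fewer than 201 reads in any library. The table gives RPKM, in which the reads of a feature are divided by its length and by the uniquely mapped reads of the library. Each value could be turned back into whole reads. Changes are given on log2 of the RPKM plus 0.5 after a scaling of each library (trimmed mean of log ratios), and levels as that scaled RPKM. On the RPKM as deposited the median of the 5882 features tested moved against 0 min by −0.46 (15 min) and −0.38 (30 min) in WT and by −0.43 and −0.30 in the *atf21Δ*-labelled libraries, and the scaling takes these shifts out, so each change is relative to the bulk of features. In such bulk samples fewer cells with an mRNA and less of it per cell cannot be told apart. The stress genes *gpd1*, *tps1*, *hsp9* and *ctt1* were called higher at 15, 30 and 60 min in both strains under each of 5 scalings (4 of 4, median log2 change at 30 min 3.72 in WT and 4.03 in the other strain). Reads of *atf21* were present in the *atf21Δ*-labelled libraries: at 30 min its deposited RPKM was 15.4, 17.8 and 30.4 there and 27.8, 29.2 and 28.1 in WT. Each difference between the strains therefore rests on that label.

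Ribosomal protein genes were among the most abundant mRNAs before the stress. At 0 min in WT their scaled RPKM, which is per length and can be compared between genes, ranged from 35.2 to 2434 with a median of 691, against 13.0 over all protein-coding genes tested. They filled 73 of the first 100 places among 4873 protein-coding genes and 121 of the first 200. The highest 3 were *rps801* (2650, 2369 and 2283 in the 3 libraries of 0 min), *rps102* (2472, 2219 and 2283) and *rps21* (2444, 2059 and 1877), which encode proteins of the small subunit. Their libraries overlapped, so the order of these 3 is not set beyond the spread. The lowest 3 were *rpl3002* (28.7, 41.4 and 35.6), *rpl1603* (mean 39.4 ± 5.63, SD, n = 3) and *rpl35b* (63.6, 89.4 and 94.1), all of the large subunit. *rpl35b* stood above the other two, which overlapped each other, and the highest member was 69.1 times the lowest. Among the *atf21Δ*-labelled libraries the same 3 small subunit genes measured 2169 ± 401, 2316 ± 225 and 2050 ± 548 (SD, n = 3) and the same 3 large subunit genes 31.9 ± 1.30, 39.4 ± 6.80 and 72.0 ± 4.63. RPKM here divides by the whole span, introns included, and reads with more than 1 locus were discarded, so genes with introns or with near-identical stretches read low. Of the 138, 106 had no 48-base stretch shared with any other place in the genome. The share of unique stretches was lowest for *rpl1201* (14.9%), *rpl301* (33.2%), *rpl1202* (39.2%) and *rpl302* (43.8%), whose levels are uncertain.

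The share of all protein-coding reads that fell on the 138 genes gives the course of the group relative to those reads. It amounts to a scaling to protein-coding reads, so changes in the reads of other genes move it too. At 30 min the median log2 change of the members in the main scaling was −0.09 in WT and 0.06 in the other strain. In WT it went from 20.2% ± 0.854 before sorbitol to 21.8% ± 0.929 after 15 min, 17.1% ± 1.25 after 30 min, 17.0% ± 0.436 after 60 min, 19.8% ± 1.01 after 120 min and 19.7% ± 1.36 after 180 min (SD, n = 3). For the *atf21Δ*-labelled libraries it was 19.6% ± 1.44, 21.5% ± 1.05, 17.7% ± 0.404, 15.5% ± 0.833, 18.6% ± 0.416 and 20.9% ± 0.781 at the same times. The share was low at 30 and 60 min in both strains, with no overlap with 0 min, and overlapped 0 min at 15, 120 and 180 min in both. The highest WT library at 60 min held 17.3%, against 19.4% in the lowest at 0 min, and the highest of the other strain at 30 and 60 min held 18.1% and 16.2%, against 18.5%. As a share of all uniquely mapped reads the group took 8.88% ± 1.07 before sorbitol, 7.90% ± 0.880 after 15 min and 6.36% ± 0.928 after 30 min in WT, so the mean at 15 min lay on the other side of 0 min once reads on other kinds of RNA were counted. Ribosomal RNA took 45.1% ± 6.95, 50.5% ± 5.95 and 51.7% ± 7.09 of the reads on features in the same groups, and its part in that difference was not tested.

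**Figure D2:**
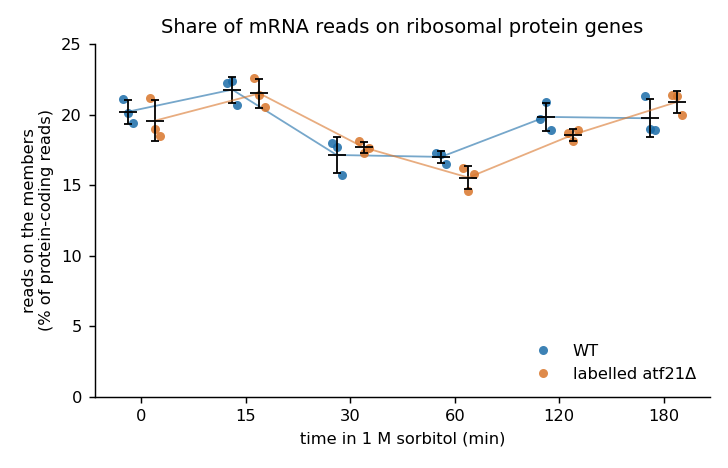
Percent of protein-coding reads on the 138 ribosomal protein genes (y axis, from 0) by minutes after sorbitol (x axis, times evenly spaced), with 1 point per library, a dash and bar for the mean and SD of 3 libraries and a line joining the means of each strain. The libraries of 30 and 60 min sit between 14.6% and 18.1%, below every library of 0 min of the same strain.

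Gene by gene, changes over the time course were common among the members. With limma and Benjamini-Hochberg adjustment over all features, 108 of the 138 changed over time in WT (F-test, adjusted p under 0.05), where 51.6% of all features tested did, and 130 in the *atf21Δ*-labelled libraries, against 61.7%. The F-test depended on the scaling, with 44 in WT and 27 in the *atf21Δ*-labelled libraries on the RPKM as deposited, 64 in WT after scaling to protein-coding reads, and 51 in the *atf21Δ*-labelled libraries after quantile normalization. The shares of all features changed under these scalings are not given here. Those of the main fit do not apply to them, so these counts have no background. The sign of the members' median at 15 min turned with the scaling of libraries, and that at 60 min did not.

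At 15 min 42 members were called higher and 0 lower in WT (30.4% of the members, where 12.5% of all features were called higher and 10.9% lower), and 88 higher and 0 lower in the *atf21Δ*-labelled libraries (background 15.6% higher and 12.3% lower), but under no scaling and under quantile normalization the calls turned to 0 higher in both strains. The median log2 change of the 138 was 0.34 in WT and 0.45 in the other strain (1.26-fold and 1.37-fold), −0.20 and −0.06 on the RPKM as deposited, −0.18 and −0.08 after quantile normalization, and 0.08 and 0.14 after scaling to protein-coding reads. Relative to the median of all features in the same fit, the members were above it by 0.31 and 0.41 in the main scaling and by 0.27 and 0.37 as deposited, and below it by 0.12 and 0.04 after quantile normalization (differences of −0.12 and −0.04). A total of 38 calls were shared between the strains, 90.5% of those of WT and 43.2% of those of the other strain. By limma 0 members were lower in either strain, and 0 at an unadjusted p under 0.05 and with voom on the reads. The count moved with single libraries: in WT 16 were called without replicate 2 of 0 min, 8 without replicate 3 of 0 min, 25 without replicate 1 of 15 min and 23 without replicate 2 of 15 min. In the *atf21Δ*-labelled libraries the count was 18 without replicate 2 of 0 min, 41 without replicate 3 of 0 min, 38 without replicate 1 of 15 min and 57 without replicate 3 of 15 min.

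The lowest adjusted p among the 3 highest estimates at 15 min in WT was that of *rps1202*, which encodes protein S12 of the small subunit. Its scaled RPKM was 778, 614 and 600 at 0 min and 1222, 919 and 1132 at 15 min in WT, and 602, 549 and 709 against 870, 829 and 1164 in the *atf21Δ*-labelled libraries. The groups of 0 and 15 min did not overlap in either strain. The log2 change was 0.72 ± 0.13 (SE, limma, adjusted p = 0.0012) in WT and 0.61 ± 0.14 (0.0039) in the other strain, but 0.18 (0.61) and 0.11 (0.78) on the RPKM as deposited and 0.23 (0.26) and 0.10 (0.81) after quantile normalization. The whole span of *rps1202* lies opposite *pmp1*, whose reads were counted apart by strand. A larger estimate with a wider spread was measured for *rps2401*, of the small subunit, at 943, 654 and 696 against 1718, 1108 and 1081 in WT (0.75 ± 0.27, adjusted p = 0.072). For *rpp202*, of the stalk, it was 0.66 ± 0.30 (0.17), and neither passed the main test. With the replicate number as a factor both passed in WT (limma, adjusted p = 0.00054 for *rps2401* and 0.0016 for *rpp202*). At the other end stood 3 small subunit genes at or under their level of 0 min. They were *rps1401* (−0.15 ± 0.13, adjusted p = 0.54), *rps2202* (−0.11 ± 0.13, 0.69) and *rps1902* (−0.01 ± 0.10, 0.97) in WT, none of which passed the test in the main scaling. All 3 were called lower as deposited, *rps1401* at −0.68 (0.0057), *rps2202* at −0.64 (0.046) and *rps1902* at −0.54 (0.045), and after quantile normalization, at −0.62 (0.0008), −0.58 (0.0044) and −0.51 (0.00027).

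At 30 min few members were called. In WT 0 were higher and 9 lower (6.52%, where 15.6% of all features were called higher and 13.0% lower), and in the *atf21Δ*-labelled libraries 0 were higher and 4 lower (2.90%, against 20.0% and 18.3%). At an unadjusted p under 0.05, 1 and 2 members were higher, and voom called 0 higher in each. The median log2 change was −0.09 in WT, negative under each of the 5 scalings (to −0.49 as deposited), and 0.06 in the *atf21Δ*-labelled libraries, where it was −0.25 as deposited, −0.34 after quantile normalization and −0.17 after scaling to protein-coding reads. After quantile normalization 62 members were called lower in WT and 40 in the other strain, where 18.4% and 23.2% of all features were. As deposited 49 and 14 were, against 27.4% and 28.1%. After scaling to protein-coding reads 28 and 22 were, against 18.5% and 31.1%, and after scaling without the members 8 and 3, against 12.9% and 17.8%. In WT the low count of members at 30 min thus holds for the main scaling and the one without the members. In the other strain the members' share lay below that of all features except after quantile normalization. The 9 of WT were *rpl2301*, *rpl2502*, *rpl3402*, *rps802*, *rps1001*, *rps1102*, *rps1602*, *rps1902* and *rps2202*, and the 4 of the other strain *rpl102*, *rpl3402*, *rpp101* and *rps2202*. Shared were *rpl3402* and *rps2202*, 22.2% and 50.0% of the 2 lists. In WT 5 were called without replicate 1 of 0 min, 4 without replicate 2 of 0 min, 19 without replicate 2 of 30 min and 4 without replicate 3 of 30 min. Among the *atf21Δ*-labelled libraries the 4 fell to 2 without replicate 1 of 0 min, replicate 2 of 15 min or replicate 1 or 2 of 120 or 180 min, and to 1 without replicate 2 or 3 of 0 min or replicate 1 of 30 min.

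The gene *rps2202*, one of a pair for protein S22 of the small subunit, fell furthest at 30 min in WT. Its scaled RPKM was 240, 228 and 237 at 0 min, 268, 215 and 179 at 15 min, 180, 156 and 123 at 30 min and 172, 169 and 169 at 60 min. For the *atf21Δ*-labelled libraries it was 225, 210 and 226 at 0 min and 124, 172 and 143 at 30 min. All libraries of 30 min lay below all of 0 min in both strains. The log2 change at 30 min was −0.63 ± 0.13 (SE, limma, adjusted p = 0.0035) in WT and −0.60 ± 0.11 (0.00093) in the other strain. The gene for protein S19 named *rps1902* measured 597, 606 and 542 at 0 min and 435, 403 and 350 at 30 min in WT, a change of −0.56 ± 0.10 (0.00072). In the *atf21Δ*-labelled libraries it measured 648, 501 and 498 against 479, 448 and 449, a change of −0.25 ± 0.13 (0.20), which passed the test as deposited (−0.56, 0.025), after quantile normalization (−0.65, 0.00013) and after scaling to protein-coding reads (−0.48, 0.0075). S19 is best known from human Diamond-Blackfan anaemia, in which its gene is often mutated. A gene for protein S16, *rps1602*, measured 591, 572 and 527 against 431, 377 and 368 in WT (−0.52 ± 0.11, adjusted p = 0.0023) and 556, 546 and 476 against 507, 483 and 459 in the other strain (−0.12 ± 0.12, 0.54), where it passed after quantile normalization (−0.52, 0.00045) and after scaling to protein-coding reads (−0.35, 0.034). None of the groups of these genes at 30 min overlapped 0 min in WT, while *rps1602* overlapped it in the other strain. The highest estimates of WT at 30 min did not pass the test: *rpl4101*, for the very short protein L41, at 0.36 ± 0.20 (0.30), *rps1202* at 0.28 ± 0.13 (0.19) and *rpp0* at 0.21 ± 0.10 (0.18).

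At 60 min the fall was broad and kept its sign under each scaling tried. In WT 63 members were called lower and 0 higher (45.7%, where 7.79% of all features were called lower and 7.31% higher), and in the *atf21Δ*-labelled libraries 62 and 0 (44.9%, against 9.88% and 9.55%). The 0 held at an unadjusted p under 0.05 and with voom, which called 57 and 67 lower. The median log2 change was −0.38 in WT and −0.40 in the other strain (0.766-fold and 0.756-fold), between −0.45 and −0.27 and between −0.47 and −0.33 over the 5 scalings, while the median of all features was 0.00 and 0.03. The strains shared 45 calls, 71.4% and 72.6% of the 2 lists. By subunit, 36 of 76 large subunit genes were called lower in each strain (47.4%, medians −0.41 and −0.40), and 21 and 20 of 55 small subunit genes (38.2% and 36.4%, medians −0.35 and −0.39), a difference that was not tested. The number of calls moved with the scaling and with single libraries, to 28 and 46 as deposited, in WT to 31 without replicate 2 of 0 min, 39 without replicate 2 of 60 min and 38 without replicate 3 of 60 min, and in the other strain to 32 without replicate 1 of 0 min and 39 without replicate 2 of 60 min. Under all 5 scalings 18 of the 63 stayed called in WT, 37 of the 62 in the other strain and 10 in both, namely *rpl702*, *rpl1202*, *rpl2001*, *rpl2502*, *rpl3402*, *rpl3703*, *rpp103*, *rpp203*, *rps1001* and *rps1902*.

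**Figure D3:**
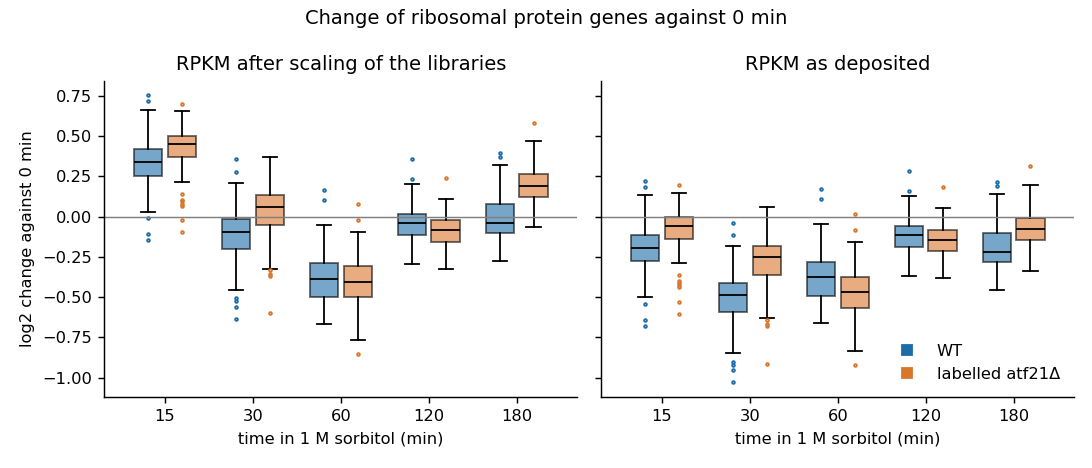
Log2 change against 0 min (y axis) of the 138 ribosomal protein genes by minutes after sorbitol (x axis), after scaling of the libraries (left) and on the RPKM as deposited (right). Each box holds the quartiles over genes with the median as a line, whiskers reach 1.5 times the box height at most and points lie beyond them. The WT medians at 15 min are 0.34 on the left and −0.20 on the right, while those at 60 min are −0.38 on both sides.

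A gene for protein L7 of the large subunit, *rpl702*, gave 370, 389 and 383 at 0 min and 247, 232 and 253 at 60 min in WT, and 345, 314 and 381 against 232, 208 and 248 in the other strain. All libraries of 60 min lay below all of 0 min in both strains. The log2 change was −0.64 ± 0.09 (SE, limma, adjusted p = 6.2e-05) and −0.60 ± 0.10 (0.00041). The lowest estimate in both strains among the genes named here was that of *rps1902*, at 372, 358 and 369 in WT at 60 min and 324, 266 and 317 in the other strain, which is −0.66 ± 0.10 (0.00014) and −0.85 ± 0.13 (0.00011). By then *rps1602* measured 352, 416 and 427 in WT (−0.50 ± 0.11, 0.0031) and 346, 265 and 319 in the other strain (−0.77 ± 0.12, 0.00015). For these genes too no library of 60 min reached the range of 0 min. For *rps3*, whose protein lies where the mRNA enters the small subunit, the WT estimate was as low, at −0.64 ± 0.27, but its libraries of 0 min ran from 422 to 776 and the adjusted p was 0.12. It passed without replicate 1 of 0 min, at −0.91 (0.034), and at −0.64 as deposited (0.041) and in 1 fit of 36 libraries (0.039). At the other end, *rpl4101* (0.17 ± 0.20, 0.69), *rpl4102* (0.10 ± 0.22, 0.85) and *rps1401* (−0.05 ± 0.13, 0.87) had the highest estimates at 60 min in WT and passed no test. Among the *atf21Δ*-labelled libraries these 3 measured −0.22 ± 0.19 (0.46), −0.37 ± 0.24 (0.32) and −0.09 ± 0.12 (0.66).

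**Figure D4:**
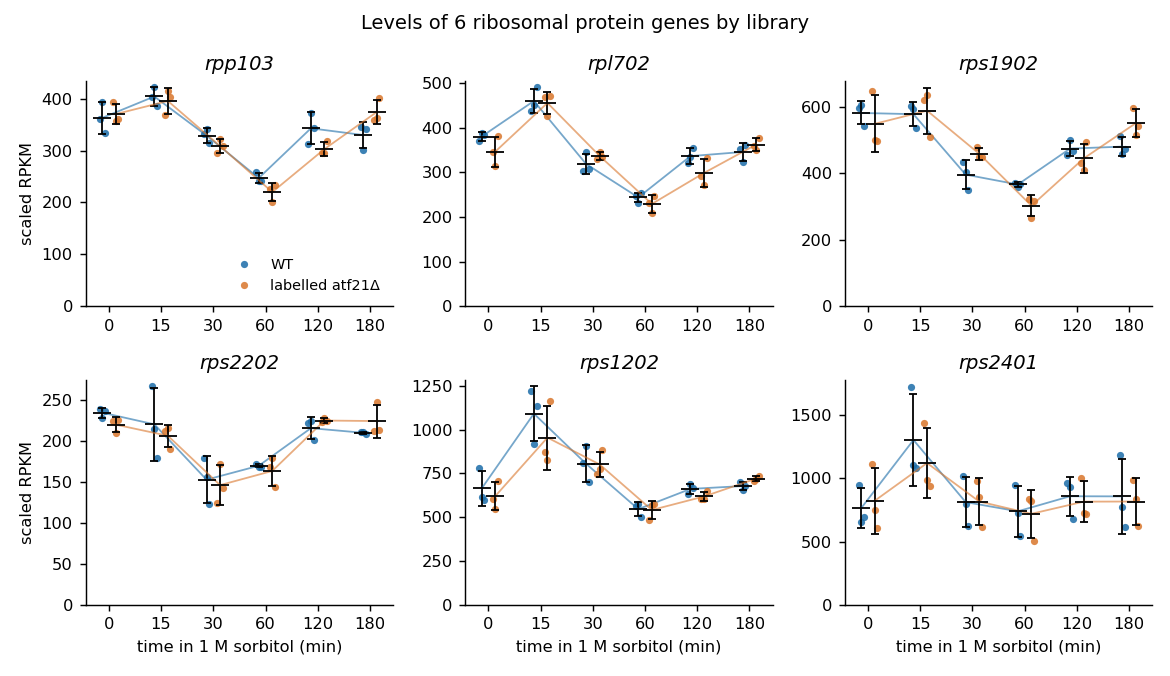
Scaled RPKM (y axis, from 0) of 6 genes by minutes after sorbitol (x axis, times evenly spaced), with 1 point per library, a dash and bar for the mean and SD of 3 libraries and a line joining the means of each strain. At 60 min *rpl702* sits between 208 and 253 in all 6 libraries against 314 to 389 at 0 min, while the mean of *rps2202* is lowest at 30 min and those of *rps1202* and *rps2401* are highest at 15 min in both strains.

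The stalk is a mobile arm of the large subunit, made of P0 at its base (*rpp0*) and pairs of the acidic proteins P1 (*rpp101*, *rpp102* and *rpp103*) and P2 (*rpp201*, *rpp202* and *rpp203*), which call in the elongation factors. At 60 min 6 of the 7 were called lower in each strain, where 7.79% and 9.88% of all features were, with medians of −0.47 and −0.53. As deposited 4 of the 6 calls of WT were lost, those of *rpp0* (adjusted p = 0.11, limma), *rpp101* (0.065), *rpp102* (0.24) and *rpp201* (0.09), and in the other strain that of *rpp0* (0.06). Lowest was *rpp103*, at 361, 394 and 334 against 258, 242 and 241 in WT and 393, 357 and 361 against 226, 200 and 234 in the other strain. That was −0.55 ± 0.10 (SE, limma, adjusted p = 0.00064) and −0.75 ± 0.09 (1.3e-05). The gene for P0 changed by −0.39 ± 0.10 (0.012) and −0.47 ± 0.13 (0.018). For the other P1 genes the changes were −0.48 ± 0.10 (0.0032) and −0.71 ± 0.12 (0.00037) in *rpp101* and −0.37 ± 0.12 (0.048) and −0.60 ± 0.11 (0.00093) in *rpp102*. The WT call of *rpp102* was lost in 13 of 18 fits without 1 library, after scaling without the members (0.06) or to protein-coding reads (0.2), without the trend (0.054) and with voom (0.056). Among the P2 genes, *rpp201* gave −0.47 ± 0.12 (0.015) and −0.51 ± 0.14 (0.015), and *rpp203* −0.53 ± 0.14 (0.017) and −0.53 ± 0.13 (0.0075). The seventh, *rpp202*, was not called in either, at −0.19 ± 0.30 (0.78) and −0.52 ± 0.20 (0.077), with WT libraries from 786 to 1403 at 60 min against 939 to 1441 at 0 min. In the other strain it passed as deposited (−0.59, 0.028), after quantile normalization (−0.39, 0.049) and without replicate 3 of 0 min (−0.71, 0.026). At 15 min 2 of the 7 were called higher in WT and 3 in the other strain, where 12.5% and 15.6% of all features were. This direction turns with the scaling as for all members.

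After 60 min the medians of the main scaling lay nearer to 0. At 120 min 0 members were called in WT, where 3.33% of all features were called higher and 2.31% lower (3 members were lower at an unadjusted p under 0.05, and voom called 0), and the median log2 change was −0.04. For the *atf21Δ*-labelled libraries it was −0.08, and 1 member, *rpp103*, was called lower (−0.29 ± 0.09, adjusted p = 0.038, limma, background 5.10% higher and 4.42% lower), with 0 called without replicate 1 or 2 of 0 min or replicate 1 or 2 of 120 min. At 180 min 0 members were called in WT (background 2.74% higher and 2.23% lower, 1 higher and 7 lower at an unadjusted p under 0.05, voom 0), with a median of −0.04. After quantile normalization 29 of the 138 were called lower in WT at each of these times, where 3.94% and 4.06% of all features were, with medians of −0.22 and −0.19. In the *atf21Δ*-labelled libraries the median was 0.19, but −0.08 as deposited and −0.12 after quantile normalization, and 4 members were called higher (2.90%, background 5.24% higher and 3.42% lower). These were *rpl301*, for protein L3 beside the site of peptide bond formation (0.47 ± 0.15, 0.029), *rpl44* (0.44 ± 0.13, 0.025), *rpl6* (0.38 ± 0.12, 0.032) and *rps1002* (0.58 ± 0.15, 0.011). The level of *rps1002* was 239, 247 and 175 at 0 min and 325, 322 and 333 at 180 min. The 4 calls fell to 1 without replicate 2 of 0 min, 0 without replicate 3 of 0 min, 2 without replicate 1 of 180 min and 1 without replicate 3 of 180 min, and to 0 as deposited and after quantile normalization.

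Other genes of protein synthesis gave a setting for these changes. In the main scaling 13.0% of all features in WT and 18.3% in the other strain were called lower at 30 min. At 60 min 7.79% and 9.88% were called lower, and at 15 min 12.5% and 15.6% were called higher. Of 22 translation factors, which start or lengthen the protein chain, 12 were called lower at 60 min in WT and 13 in the *atf21Δ*-labelled libraries (medians −0.42 and −0.41), close to the medians of the members. Among them *tif211*, for a subunit of the factor that brings in the first tRNA, changed by −0.41 (adjusted p = 0.0067, limma) and −0.52 (0.00097), with the WT call lost as deposited (0.11) and after scaling to protein-coding reads (0.053). At 15 min 7 and 14 of them were called higher (medians 0.30 and 0.38), against 0 and 0 higher with medians of −0.23 and −0.12 as deposited and −0.16 and −0.06 after quantile normalization. Of 38 genes for ribosome assembly and RNA polymerase I, 28 and 35 were called lower at 30 min (medians −0.78 and −0.79) and 8 and 8 at 60 min (medians −0.26 and −0.24). The calls at 60 min fell to 2 and 3 as deposited, where 5.05% and 7.33% of all features were lower. After scaling to protein-coding reads they fell to 2 and 4, where 4.90% and 7.53% were lower. Its GTPase gene *nog1*, for a factor of large subunit assembly, changed in WT by −1.68 (9.6e-08) at 30 min and −0.54 (0.0078) at 60 min. In the other strain it was called at 30 min, at −1.45 (1.7e-07), and not at 60 min, at −0.27 (0.16). Of 49 genes for proteins of the mitochondrial ribosome, 4 and 10 were called lower at 30 min (8.16% and 20.4%, against 13.0% and 18.3% of all features). At 60 min 0 and 2 were called lower (medians 0.03 and −0.03). At 30 min the calls lower were 16 and 18 as deposited, where 27.4% and 28.1% of all features were. They were 9 and 22 after scaling to protein-coding reads, where 18.5% and 31.1% of all features were. The genes *ubi1* and *ubi3*, which make a ribosomal protein joined to ubiquitin, did not pass the test at 60 min, at −0.51 (0.11) and −0.17 (0.51) for *ubi1* and −0.10 (0.88) and −0.28 (0.56) for *ubi3*. These 2 belong to a list of 9 ubiquitin fusions and regulators, which moved in both directions at 15 min. In WT 1 of the 9 was called higher and 2 lower, and in the other strain 2 were higher and 2 lower. At that time 10.9% and 12.3% of all features were called lower. Of the same list, the transcription factor gene *sfp1*, whose counterpart in budding yeast controls ribosomal protein genes, was called higher at 15 min, at 0.79 (0.0085) and 1.07 (0.00034), but not as deposited, at 0.27 (0.28) and 0.57 (0.08). It passed after scaling to protein-coding reads in both strains, at 0.54 (0.04) and 0.76 (0.0029), and after quantile normalization at 0.85 (0.0023) in the *atf21Δ*-labelled libraries and not in WT, at 0.53 (0.073).

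No member passed a test between the strains. With limma and Benjamini-Hochberg adjustment 0 of the 138 passed the strain-by-time interaction (background 0.0340%), with 17 at an unadjusted p under 0.05, where 4.56% of all features had one, and 0 adjusted and 16 unadjusted with voom. At single times 0 passed before sorbitol (background 0.0170%) and after 15 min (0.0340%), 30 min (0), 60 min (0.0680%), 120 min (0) or 180 min (0.0170%), and voom called 0 at each. Unadjusted, 3, 2, 5, 21, 7 and 10 members had a p under 0.05 at these times, against 1.72%, 14.6%, 8.67%, 3.86%, 1.87% and 3.33% of all features. All 21 of those at 60 min were lower in the *atf21Δ*-labelled libraries, where 2.36% of all features were. The lowest interaction p was that of *rps1602* (unadjusted 0.0022, adjusted 0.74). Its level at 60 min differed by −0.36 ± 0.11 (labelled *atf21Δ* minus WT, SE, adjusted p = 0.31) and at 30 min by 0.30 ± 0.11 (0.55). At 60 min *rpl1001*, for a protein that joins the large subunit late, differed by −0.32 ± 0.11 (0.44).

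Paralogues were compared on uniquely mapped reads, with no filter on the share of unique stretches. The counts of pairs therefore include *rpl1201* and *rpl1202* (14.9% and 39.2% unique) and *rpl301* and *rpl302* (33.2% and 43.8%), whose ratios are uncertain. Members whose symbols differ only in the last 2 digits made 52 families, 47 of 2 genes and 5 of 3, with 109 genes and 62 pairs. At 0 min in WT 22 pairs differed by more than 2-fold, 9 by more than 4-fold and 3 by more than 8-fold. The widest was *rpl3001* against *rpl3002*, for protein L30, at 900, 899 and 823 against 28.7, 41.4 and 35.6, a log2 ratio of 4.63 ± 0.28 (SD, n = 3, 24.8-fold). Among the *atf21Δ*-labelled libraries it was 4.61 ± 0.12. Both carry a HomolD box, as printed above, and *rpl3001* also holds the HomolE letters. The next were *rpl3401* over *rpl3402*, for protein L34 (3.63 ± 0.05 and 3.53 ± 0.12), and *rpl101* over *rpl102*, for the protein of the stalk where spent tRNAs leave (3.56 ± 0.11 and 3.43 ± 0.12). All 6 of these genes were 100% unique in 48-base stretches. Their ratios stayed between 2.99 and 5.05 in all 36 libraries, with the same copy on top in each.

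Ratios within a library do not depend on a factor for that library, and so they are free of the doubt about such factors at 15 and 30 min. Quantile normalization is not such a factor, and the ratios were not computed after it. Across the 62 pairs the median absolute change of the log2 ratio at 30 min was 0.17 in WT and 0.12 in the other strain. In 17 pairs in WT and 16 in the other strain the libraries of 30 min did not overlap those of 0 min. At 60 min this held for 16 and 13 pairs, so a lack of overlap is common among the pairs. No such count was made over pairs of other genes, so these have no background and show no trait of these pairs. The 5 pairs that changed most in WT at 30 min were picked on those libraries, so their WT values are a description, while the *atf21Δ*-labelled libraries give a test that the choice did not use. The minor copy *rps2202* lost ground to *rps2201*: the log2 ratio was 1.66, 1.69 and 1.55 at 0 min, 1.93, 2.38 and 2.37 at 30 min and 1.64, 1.75 and 1.62 at 60 min in WT. For the *atf21Δ*-labelled libraries it was 1.59, 1.55 and 1.64 at 0 min and 2.57, 2.04 and 2.53 at 30 min. The change was 0.60 in WT and 0.79 in the other strain, with no overlap of 0 and 30 min. At 60 min the other strain scattered, at 1.63, 1.13 and 2.12, and both strains overlapped 0 min again. For *rps1901* over *rps1902* the ratio went from 0.53, 0.43 and 0.55 to 0.87, 1.20 and 1.09 in WT and from 0.38, 0.57 and 0.70 to 0.82, 0.81 and 0.94 in the other strain. This ratio stayed above 0 min at 60 min, by 0.33 in WT and 0.35 in the other strain, with no overlap in either. In the same direction *rps1101* over *rps1102* changed by 0.36 and 0.35, while *rpl2301* over *rpl2302* changed by −0.47 and −0.46 and *rps1201* over *rps1202* by −0.45 and −0.31. In the *atf21Δ*-labelled libraries a two-sided exact permutation test of 3 against 3 gave p = 0.10 for 4 of the 5 pairs, the smallest such a design allows, and 0.30 for *rps1201* over *rps1202*. After adjustment over the 5 pairs these were 0.125 and 0.30, so no pair could pass a threshold of 0.05. The share of 48-base stretches more than 4 mismatches from the paralogue was 40.3% in *rps2201*, 67.6% in *rps2202*, 49.3% and 49.2% in *rps1101* and *rps1102* and 86.9% and 85.8% in *rps1901* and *rps1902*. Also, 11.1% of the span of *rps1102* lies in another gene on its strand, which shares those reads.

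**Figure D5:**
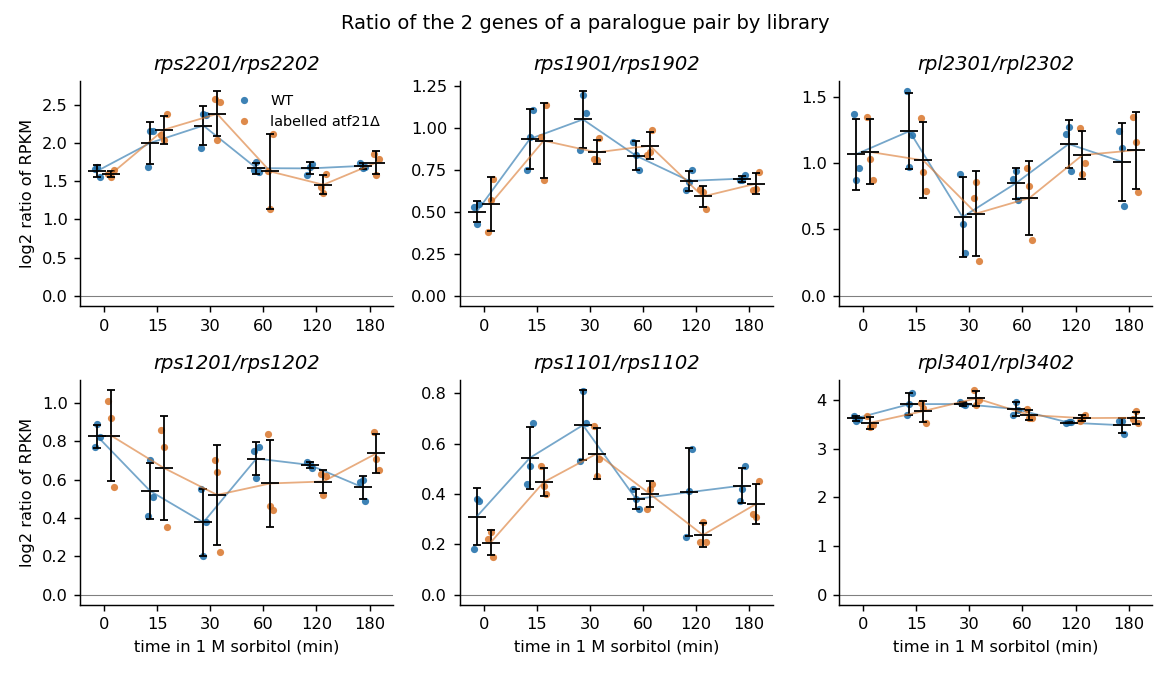
Log2 ratio of 2 paralogues within a library (y axis) by minutes after sorbitol (x axis, times evenly spaced) for 6 pairs, with 1 point per library, a dash and bar for the mean and SD of 3 libraries and a line joining the means of each strain. The mean ratio of *rps2201* over *rps2202* peaks at 30 min, that of *rps1901* over *rps1902* is still above 0 min at 60 min, and *rpl3401* stays above *rpl3402* by 3.3 or more in every library.

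Grouped by promoter element, the members had medians from −0.42 to −0.28 at 60 min. In WT, where 7.79% of all features were called lower, this held for 35 of 65 genes with HomolD alone (median −0.41), 11 of 23 with both (−0.39), 14 of 32 with neither (−0.42) and 3 of 18 with HomolE alone (−0.28). Among the *atf21Δ*-labelled libraries, with 9.88% of all features called lower, these were 32 (−0.40), 12 (−0.42), 14 (−0.41) and 4 (−0.30). No test was made of these groups. Over the 138 genes Pearson's r of the log2 level at 0 min in WT with the change was 0.21 at 60 min in WT and −0.27 in the other strain, 0.12 and 0.47 at 30 min, 0.32 and 0.14 at 15 min, −0.27 and −0.22 at 120 min, and −0.43 and −0.09 at 180 min. The genes share libraries and the level at 0 min enters both measures in WT, so these are descriptions. Between the share of unique stretches and the change, Pearson's r was from −0.09 to 0.07 and Spearman's rho from −0.05 to 0.34 over the 5 times and both strains. Overlap with another feature on the same strand, which shares reads, touched 16 members, among them *rps1401* (8.75% of its span, with *pol1*) and *rps3* (7.35%), and 50 overlapped a feature on the opposite strand, which the authors counted apart.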

How the data were processed

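The authors made strand-specific single-end libraries of total RNA after depletion of ribosomal RNA, sequenced them on a SOLiD 5500xl, aligned the reads with SHRiMP2 to the genome of PomBase release 11, dropped reads with more than 1 locus and deposited RPKM values over the full span of each feature, unscaled between libraries. Their own tests, not used here, used edgeR and limma. Each of 253404 values was a whole number of reads to within 0.01 of a read, and voom was run on those reads. Before the main tests a trimmed mean of log ratios (30% of ratios and 5% of levels trimmed) set 1 factor per library and log2 of RPKM plus 0.5 was fitted with limma 3.58.1 in R 4.3.3, with a trend and 1 fit per strain. Tests covered the 5882 features that reached RPKM 1 in over 6 of the 36 libraries, all 138 members among them. A feature was called at a Benjamini-Hochberg adjusted p under 0.05 over features and times. The strain tests used 1 fit of all libraries. The pseudocount understates the change of low features. The procedure was also run on simulated data, but no result of that run is given here, so it does not vouch for the calls.

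Alternatives were no scaling, quantile normalization, scaling without the members, scaling to protein-coding reads (chosen after seeing the data), pseudocounts of 0.1 and 1, no filter, an RPKM of at least 5, limma without the trend, the replicate number as a factor, 1 fit of 36 libraries, voom, and leaving out each library. The factors without the members came from the other protein-coding features alone, while the main factors used all features. Named members were the stalk genes, the 3 highest and 3 lowest changes in WT at 15, 30 and 60 min, the 3 highest and lowest levels, the 5 pairs of paralogues with the largest change at 30 min and the 3 with the widest ratio, the 3 lowest p of the strain tests and calls of 120 and 180 min in WT. An item that these rules select is not reported here. Others named in counts were chosen after their values were seen. The members, lists and rules were chosen with earlier results of these data known. Unique stretches, promoters and motifs came from RefSeq ASM294v3, to which all 138 members matched by identifier. Its gene starts differ from those of the deposited table for many members, so the coordinates given are those of ASM294v3 alone. Other steps ran in Python 3.11.15 with scipy 1.17.1, numpy 2.4.6, matplotlib 3.10.9 and pandas 2.3.3. Replicates are labelled biological, with their source not further described in the labels. Reads carry no molecular identifiers, so depth limits counting error only.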

Additional observations from a re-analysis of the deposited data

How the results depend on the processing

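Scaling moved most counts. With no scaling, members changed over time were 44 (WT) and 27 (*atf21Δ*-labelled). Counts of members changed over time under other scalings have no share of all features beside them here, and so no background. Calls in WT were 0 higher and 4 lower at 15 min, 49 lower at 30 min and 28 lower at 60 min, where 33.1%, 27.4% and 5.05% of all features were lower, and in the other strain 0 higher and 1 lower at 15 min and 14 lower at 30 min, where 34.3% and 28.1% of all features were lower, 0 lower at 120 min and 0 higher at 180 min. With quantile normalization 51 changed over time in the *atf21Δ*-labelled libraries. Calls in WT were then 0 higher and 15 lower at 15 min and 62 lower at 30 min. At 120 min as at 180 min 29 were lower in WT. In the other strain calls were 0 higher and 6 lower at 15 min and 40 lower at 30 min. There 4 were lower at 120 min and 0 higher at 180 min. In both strains the share of members called lower at 15 min did not exceed that of all features under this normalization. The same held at 120 min in the other strain. With scaling to protein-coding reads 64 changed over time in WT, with 2 higher and 1 lower at 15 min, 28 lower at 30 min and 37 lower at 60 min. Of all features 4.35% were then higher and 21.5% lower at 15 min, 18.5% lower at 30 min and 4.90% lower at 60 min. The other strain had 0 higher and 2 lower at 15 min and 22 lower at 30 min. Its shares of all features were 4.37% higher and 29.6% lower at 15 min and 31.1% lower at 30 min. Scaling without the members gave 1 higher at 30 min in the other strain.

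No filter gave WT 18 calls lower at 30 min, 2 at 120 min and 3 at 180 min, and the other strain 2 at 120 min. A pseudocount of 0.1 and a filter at RPKM 5 each gave 1 lower at 120 min in WT, limma without trend 2 lower at 120 min in the other strain, and 1 fit of 36 libraries 14 lower at 30 min in WT and 2 higher at 30 min and 2 higher at 180 min in the other strain.

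Same-numbered libraries of different times had correlated deviations of −0.23 to 0.50 in WT (median 0.15, 27 of 45 over 0.1) and −0.07 to 0.38 in the other strain (0.21, 33 of 45). The main fits and the permutation tests did not take the numbers as pairs, so they leave these shared deviations out of account. Between different numbers the medians were −0.07 and −0.08. 11 of 18 and 17 of 18 libraries were closest to their own number. With the replicate block the calls were 67 higher at 15 min, 17 lower at 30 min, 2 lower at 120 min and 1 lower at 180 min in WT, and 3 higher and 11 lower at 30 min, 104 lower at 60 min, 4 lower at 120 min and 23 higher at 180 min in the other strain. The shares of all features called with the block are not given here, so these counts have no background. At 15 min *rps2401* (adjusted p = 0.00054 in WT and 0.0086 in the other strain, limma) and *rpp202* (0.0016 and 0.011) then passed, as at 60 min did *rps3* (0.027 and 0.036) and, in the other strain, *rpp202* (0.0062).

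Leaving out 1 library gave 93 to 118 members changed over time in WT and 124 to 133 in the other strain. Calls in WT ranged from 8 to 47 higher at 15 min, from 4 to 19 lower at 30 min, from 31 to 66 lower at 60 min, from 0 to 1 lower at 120 min (1 without replicate 1 or 3 of 30 min) and from 0 to 1 lower at 180 min (1 without replicate 3 of 30 min). In the other strain they ranged from 18 to 94 higher at 15 min, from 0 to 1 higher (1 without replicate 3 of 0 min, 3 of 15 min, 2 of 30 min or 2 or 3 of 60 min) and 1 to 6 lower at 30 min, from 32 to 80 lower at 60 min, from 0 to 1 lower at 120 min and from 0 to 6 higher at 180 min. The interaction and the strain differences stayed at 0 in each setting. Of 1644 values of named members under alternatives, 1563 kept direction and side of the threshold, 38 fell short of it, 42 passed it and 1 turned: *rps1902* at 15 min in the *atf21Δ*-labelled libraries was −0.40 after quantile normalization against 0.11. The cause of these moves was not tested.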

Other observations

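The pair *rps1401* and *rps1402*, for protein S14 of the small subunit's platform, was singled out after its values were seen. Its log2 ratio was −2.45, −2.47 and −2.36 at 0 min, −3.02, −3.05 and −2.66 at 15 min, and −2.06, −2.11 and −1.90 at 60 min in WT. Among the *atf21Δ*-labelled libraries it was −2.57, −2.38 and −2.30, then −3.15, −2.90 and −2.78, and then −1.97, −1.99 and −1.80. The minor copy thus lost ground at 15 min and gained it at 60 min, with no overlap with 0 min in either strain. Such a lack of overlap was seen in 11 of the 62 pairs in WT and 12 in the other strain at 15 min. At 60 min it was seen in 16 and 13. These counts too have no background from pairs of other genes. Of the 48-base stretches of the 2 copies, 89.9% and 89.8% were unique but only 46.7% and 45.9% lay more than 4 mismatches from the other copy, and 8.75% of the span of *rps1401* lies in *pol1* on its strand.

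Pairs whose symbols did not meet the family rule could also be compared, and were added after their values were seen. At 0 min in WT the log2 ratio was 2.48 ± 0.32 (SD, n = 3) for *rps23* over *rps2302*, 1.89 ± 0.07 for *rpl35a* over *rpl35b* and −0.42 ± 0.32 for *rpl15* over *rpl1502*. At 60 min these were 2.47 ± 0.12, 1.69 ± 0.08 and −0.41 ± 0.26.

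In all 12 groups replicate 1 had the highest scaled level of *rps2401*, the only member of 138 with such a pattern (0.725%), against 17 of 5882 features (0.289%).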
